A study of Mus musculus with 12 samples.

Results

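This account follows 45 genes, of the 55401 in the count table, that interferons induce or that serve the presentation of peptides on MHC molecules. They are a list of names with no threshold on measured values, drawn up with earlier results of these data known, and were read in 3 groups: 25 genes of the type I interferon response, 10 of the interferon gamma response (8 of them GTPases) and 10 of antigen processing. All 45 had a row in the table, and all 45 were among the 13205 genes that passed the filter on low counts.

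RNA was sequenced from livers of 12 female mice aged 15 weeks, 6 labelled iTgMir483 and 6 labelled control, all on chow and on a C57BL/6J background. The iTgMir483 mice carried 1 copy of a Mir483 transgene at the Rosa26 locus, which is active in nearly all cell types, under a Tet-off switch that doxycycline keeps silent. Both groups came from crosses of males heterozygous for the transgene with females homozygous for CMV-Cre, a ubiquitous Cre that removes the cassette blocking it, and the controls were littermates. Offspring of such females inherit Cre whether or not they carry the transgene, so it is common to both groups. Doxycycline was given in drinking water through pregnancy to the dams of both groups and stopped at birth, so the transgene was on from birth in the whole animal, at levels above those of the normal gene, and not in hepatocytes alone.

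Mir483 was at 0 counts throughout the 6 controls and at 318 to 761 counts in the 6 iTgMir483 libraries, as the labels state. Controls held 12244123 to 30431286 counts per library and iTgMir483 livers 12415140 to 15846175. The 8 hepatocyte markers summed to 137906 to 186820 CPM (counts scaled to a common library size) in controls and 83561 to 157188 CPM in iTgMir483, so the defining markers of liver were abundant in every library. Replicate 1 of both groups stood apart from the other libraries on the second principal component, which held 16% of the variance, and iTgMir483 replicate 4 stood apart in its macrophage markers; results that turn on these libraries are given with and without them.

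Interferons are secreted proteins that warn cells of viral or bacterial nucleic acid. Type I interferons signal through Ifnar1 and Ifnar2 to a complex that includes Stat2 and Irf9, which binds a DNA element called the interferon-stimulated response element (ISRE) and switches on antiviral genes. Interferon gamma signals through Ifngr1 and Ifngr2, acts at DNA elements called gamma-activated sites (GAS), and is known for inducing large GTPases and the machinery that cuts and loads peptides onto MHC class I. In the liver, hepatocytes as well as Kupffer cells, the resident macrophages, respond to both.

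The transgene encodes 2 mature microRNAs whose sequences are shown because their seeds (bases 2 to 8, in capitals) set which messages they can pair with. They are given as RefSeq lists them (GRCm38.p6, the build of the counts), from chr7:142654932-142654952 and chr7:142654968-142654989 on the minus strand.
miR-483-3p: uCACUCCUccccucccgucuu
miR-483-5p: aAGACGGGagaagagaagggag

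Stretches of 150 bases before the RefSeq start site are shown for 6 members, since the ISRE is what binds many members of this set to 1 pathway. Capitals mark the letters GAAANNGAAA, the core of an ISRE, on either strand. Isg15 and Gbp7 rose in iTgMir483 livers and hold the letters, Xaf1 rose and does not, and Bst2, Igtp and Irgm2 hold them and did not pass the test. Isg15, Bst2 and Xaf1 are of the type I group and the other 3 are of the interferon gamma group.
Isg15 (chr4:156200819-156200968, minus strand): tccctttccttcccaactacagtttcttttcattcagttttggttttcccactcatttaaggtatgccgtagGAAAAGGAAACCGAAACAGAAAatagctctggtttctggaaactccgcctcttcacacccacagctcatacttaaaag
Xaf1 (chr11:72301479-72301628, plus strand): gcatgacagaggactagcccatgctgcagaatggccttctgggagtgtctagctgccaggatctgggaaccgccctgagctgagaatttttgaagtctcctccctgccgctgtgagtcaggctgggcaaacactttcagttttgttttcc
Bst2 (chr8:71537473-71537622, minus strand): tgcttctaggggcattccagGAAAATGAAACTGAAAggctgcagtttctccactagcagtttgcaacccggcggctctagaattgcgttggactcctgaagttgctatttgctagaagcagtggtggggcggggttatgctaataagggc
Gbp7 (chr3:142530186-142530335, plus strand): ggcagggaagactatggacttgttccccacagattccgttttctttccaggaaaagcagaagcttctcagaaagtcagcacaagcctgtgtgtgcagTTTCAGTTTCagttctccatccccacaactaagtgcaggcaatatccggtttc
Igtp (chr11:58199406-58199555, plus strand): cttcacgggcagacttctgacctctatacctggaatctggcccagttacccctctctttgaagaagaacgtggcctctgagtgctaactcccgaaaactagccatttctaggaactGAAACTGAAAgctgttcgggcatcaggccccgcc
Irgm2 (chr11:58214827-58214976, plus strand): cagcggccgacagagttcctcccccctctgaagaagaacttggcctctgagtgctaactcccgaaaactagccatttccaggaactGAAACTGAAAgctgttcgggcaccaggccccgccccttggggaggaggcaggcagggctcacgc

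In Isg15 3 matches that overlap each other began 78, 72 and 66 bases before the start site, and in Gbp7 the match began 53 bases before it. Of the 31 members with a promoter in the RefSeq table (250 bases before to 50 after the start), 16 (51.6%) held the ISRE letters, against 3.99% of all 27025 genes in that table. The GAS letters, TTCNNNGAA, were in 10 of the 31 (32.3%), against 9.55% of all genes. ISRE letters were in 9 of 17 type I promoters, 6 of 8 interferon gamma promoters and 1 of 6 antigen processing promoters, that of B2m. They were in 2 of the 6 promoters of members that rose and in 14 of the 25 of members that did not pass the test. These are matches of letters and not measured binding, and the 14 members without an entry could not be read.

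Genes were called changed by edgeR's quasi-likelihood test where the adjusted p (Benjamini-Hochberg, over all 13205 genes) was under 0.05 and the fold change over 1.5. By this rule 12 of the 45 members (26.7%) were higher in iTgMir483 livers, where 8.41% of all genes tested were. None of the 45 was lower, where 2.73% of all genes were, and DESeq2 and limma-voom also called 0 lower. At an unadjusted p under 0.05 there was 1 lower, Ifi27, beside 28 that were higher. The share of all genes at that unadjusted p was not counted, so such counts, here and below, are given as description only. The 12 were Isg15, Oas2, Mx1, Usp18, Dhx58, Xaf1 and Zbp1 of the type I group, Gbp7 of the interferon gamma group, and Tap1, Tap2, Psmb8 and Psmb9 of antigen processing. By adjusted p alone 13 passed, against 11.3% of all genes, the addition being Parp14.

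The fitted change was above 0 for 44 of the 45 members, against 50.8% of all genes. Its median over the members was a log2 fold change of 0.47, beside 0.00583 over all genes tested. The groups of libraries did not overlap for 3 members, Usp18, Psmb8 and Psmb9, with all 6 iTgMir483 values above all 6 control values; over all genes 5.09% met this. In bulk liver a gene can differ because the share of cells that express it differs or because each such cell holds another amount of its RNA, and these cannot be told apart.

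**Figure D1:**
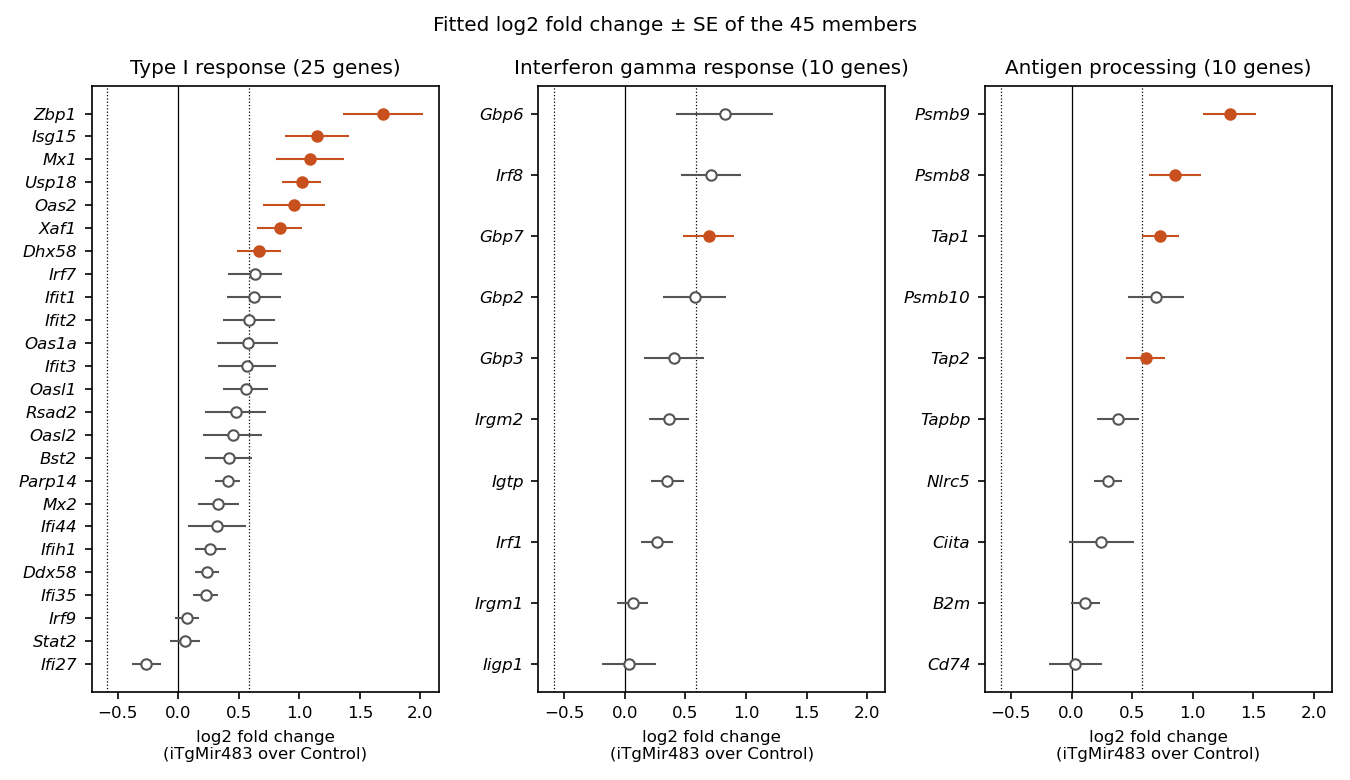
Fitted log2 fold change (x axis, iTgMir483 over Control) with its standard error for each of the 45 members, in the type I, interferon gamma and antigen processing groups; filled orange points are the 12 changed members and dotted lines mark a fold of 1.5. Of the 45 points 44 lie right of 0, and Ifi27 alone lies left of it, at -0.26.

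Among the 25 type I genes 7 rose (28%) and none was lower, with a median log2 fold change of 0.56, or 0.37 without iTgMir483 replicate 4. Their products are best described by role: modifiers and brakes of the response, sensors of nucleic acid, effectors against viruses, and the factors that carry the signal.

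Isg15, a ubiquitin-like protein that is joined to other proteins during the response (chromosome 4, 156199424 to 156200818), ranged from 2.19 to 5.71 CPM in controls (median 3.6) and from 4.88 to 11.4 CPM in iTgMir483 (median 7.74). All 6 iTgMir483 libraries were above the median of the controls and 4 were above the highest control, replicate 1. Its log2 fold change was 1.15 (adjusted p = 0.00872, SE 0.26). Usp18, the protease that takes Isg15 off its targets and damps signalling at Ifnar2 (chromosome 6, 121245906 to 121270917), ranged from 5.88 to 10.8 CPM in controls (median 7.49) and from 12.2 to 19.2 CPM in iTgMir483 (median 15.3). The groups did not overlap, and the log2 fold change of 1.02 (adjusted p = 0.0011, SE 0.16) carried the smallest adjusted p of the 45 members.

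Zbp1, a sensor of Z-form nucleic acid that can start cell death (chromosome 2, 173206612 to 173218923), ranged from 1.65 to 4.46 CPM in controls (median 3.04) and from 3.88 to 19.8 CPM in iTgMir483 (median 9.11). Replicate 4 was far above the other iTgMir483 libraries, and replicate 5, the lowest, lay within the control range. The log2 fold change of 1.69 (adjusted p = 0.00395, SE 0.33) was the largest of the 45, and was 1.38 (adjusted p = 0.00535) without replicate 4. Dhx58, the RNA helicase LGP2 that tunes the RIG-I-like sensors (chromosome 11, 100694884 to 100704271), ranged from 6.53 to 11.2 CPM in controls (median 7.79) and from 9.03 to 17.4 CPM in iTgMir483 (median 14.2). Its ranges overlapped through iTgMir483 replicate 1, which lay below the highest controls, and the log2 fold change was 0.67 (adjusted p = 0.0198, SE 0.18). The adjusted p rose to 0.0511, just outside the threshold, when control replicate 4 was left out.

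The other RNA sensors of this family gave smaller differences. Ddx58, which encodes RIG-I, had a log2 fold change of 0.24 (adjusted p = 0.121, SE 0.10), and Ifih1, which encodes MDA5, one of 0.26 (adjusted p = 0.166, SE 0.13). Neither passed the test.

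Oas2, which makes the short oligoadenylates of the antiviral response (chromosome 5, 120730333 to 120749853), ranged from 3.93 to 5.58 CPM in controls (median 4.5) and from 4.5 to 16.8 CPM in iTgMir483 (median 8.19). In 5 of 6 iTgMir483 libraries the value was above the highest control, and replicate 2 was at the control median. The log2 fold change was 0.96 (adjusted p = 0.0197, SE 0.26), and 0.69 (adjusted p = 0.0320) without replicate 4, the highest library. Its relatives did not pass the test. Oasl1 ranged from 4.89 to 9.9 CPM in controls (median 6.52) and from 6.33 to 11.5 CPM in iTgMir483 (median 10.8), with a log2 fold change of 0.56 (adjusted p = 0.0508, SE 0.19). Oas1a ranged from 1.5 to 2.86 CPM in controls (median 2.1) and from 1.57 to 4.76 CPM in iTgMir483 (median 3.11), with 0.57 (adjusted p = 0.127, SE 0.25), and Oasl2 had a log2 fold change of 0.45 (adjusted p = 0.215, SE 0.24). Oasl1 and Oas1a passed when 1 library was left out, control replicate 3 or iTgMir483 replicate 1 for Oasl1 and iTgMir483 replicate 2 for Oas1a.

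Mx1, a GTPase that traps incoming viruses and is known to be disrupted in common inbred strains (chromosome 16, 97447035 to 97462907), ranged from 0.837 to 2.13 CPM in controls (median 1.19) and from 1.38 to 3.78 CPM in iTgMir483 (median 2.96). These are low levels. Control replicate 1 stood above the other controls, 4 iTgMir483 libraries stood above it in turn, and the log2 fold change was 1.09 (adjusted p = 0.015, SE 0.28). Its neighbour Mx2 had a log2 fold change of 0.33 (adjusted p = 0.195, SE 0.17). Xaf1, a protein tied to cell death that interferon induces (chromosome 11, 72301629 to 72313733), ranged from 2.47 to 4.58 CPM in controls (median 3.95) and from 4.39 to 8.65 CPM in iTgMir483 (median 6.31). Only replicate 5 of the iTgMir483 libraries lay within the control range, and the log2 fold change was 0.84 (adjusted p = 0.00801, SE 0.19).

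The Ifit genes encode proteins that hold back the translation of foreign RNA, and stood near the threshold together. Ifit1 ranged from 3.28 to 6.62 CPM in controls (median 5.36) and from 5.17 to 12.2 CPM in iTgMir483 (median 7.89), with a log2 fold change of 0.63 (adjusted p = 0.0636, SE 0.22). Ifit2 ranged from 2.47 to 4.69 CPM in controls (median 3.78) and from 3.79 to 7.11 CPM in iTgMir483 (median 5.78), with a log2 fold change of 0.58 (adjusted p = 0.0734, SE 0.21). In both, iTgMir483 replicate 1 was the lowest library of its group, and without it both passed the test. Ifit3 had a log2 fold change of 0.57 (adjusted p = 0.113, SE 0.24), and passed only when replicate 1 of both groups was left out.

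Rsad2, or viperin, had a log2 fold change of 0.47 (adjusted p = 0.202, SE 0.25), and Bst2, or tetherin, which holds budding virus at the cell surface, one of 0.42 (adjusted p = 0.152, SE 0.20). Parp14, an ADP-ribosyltransferase, had an adjusted p of 0.0155 at a log2 fold change of 0.41 ± 0.11 (SE), under the fold required. Ifi44 and Ifi35 had log2 fold changes of 0.32 and 0.23 and did not pass. Ifi27, a small mitochondrial protein that is abundant in liver, ranged from 47.9 to 73.8 CPM in controls (median 59.8) and from 41.8 to 58.7 CPM in iTgMir483 (median 50.4). It was the one member whose fitted change was negative, at -0.26 (adjusted p = 0.134, SE 0.12), and it did not pass the test.

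Of the factors that carry the type I signal, Irf9 and Stat2 had fitted changes near 0. Irf9, which gives the ISRE complex its hold on DNA, ranged from 27.9 to 33.4 CPM in controls (median 30.8) and from 27.1 to 39.3 CPM in iTgMir483 (median 31.7), and its log2 fold change was 0.07 (adjusted p = 0.666, SE 0.10). Stat2, its partner, ranged from 47.5 to 72.6 CPM in controls (median 67.9) and from 52.9 to 80.9 CPM in iTgMir483 (median 68.7), with a log2 fold change of 0.06 (adjusted p = 0.789, SE 0.13). For both the ranges overlapped almost wholly. Irf7, the factor that amplifies interferon production, ranged from 19.6 to 32.8 CPM in controls (median 25.9) and from 29.2 to 76.5 CPM in iTgMir483 (median 33.3), with a log2 fold change of 0.63 (adjusted p = 0.0604, SE 0.22). That value leaned on replicate 4: without it the log2 fold change was 0.35 (adjusted p = 0.0908), while without replicate 1 Irf7 passed the test.

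**Figure D2:**
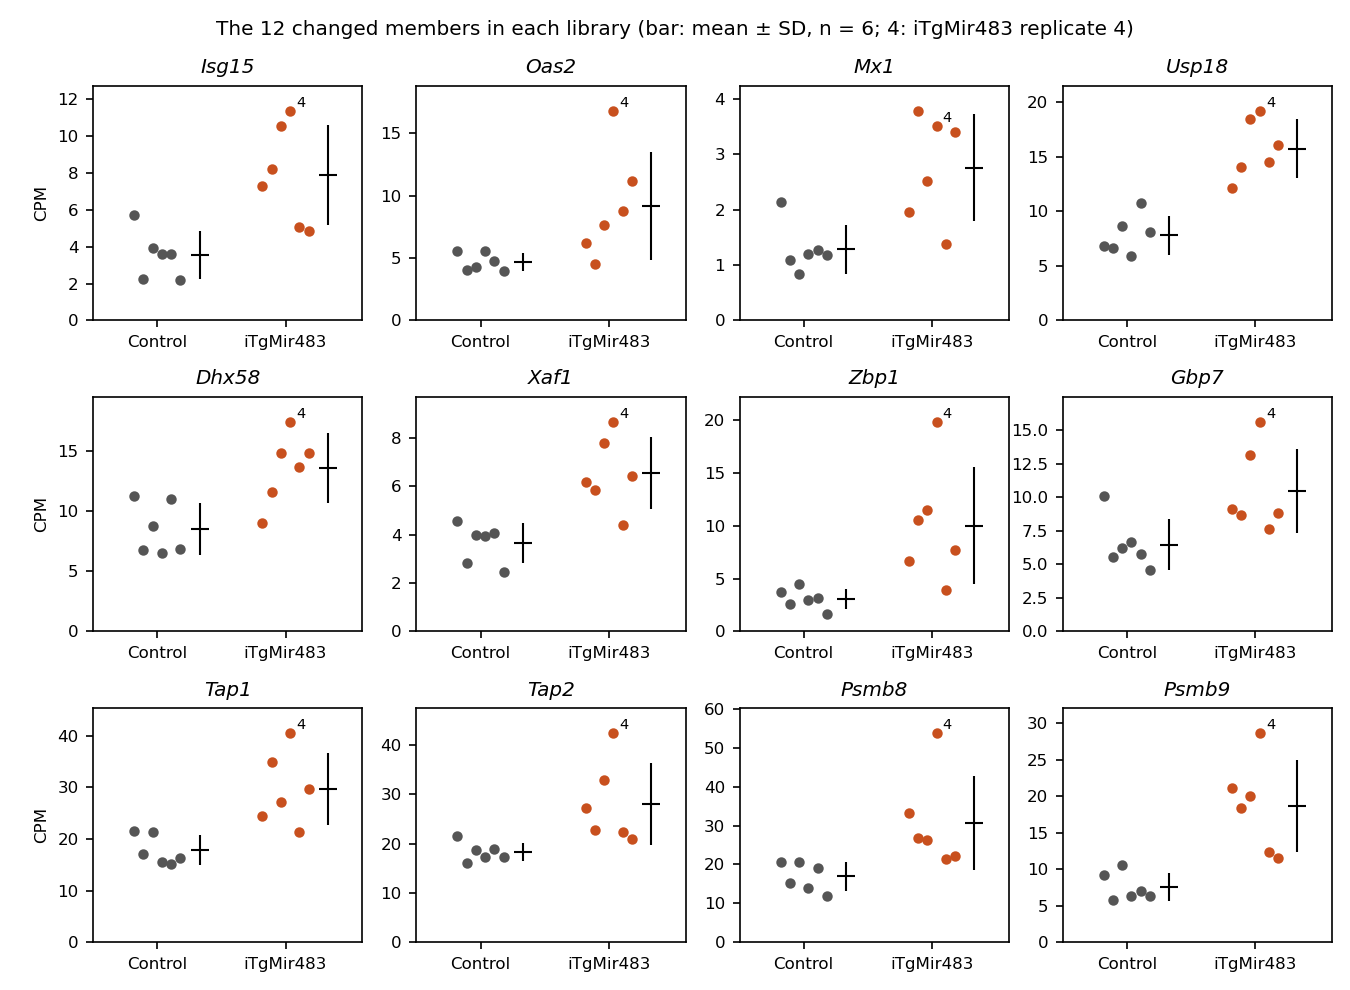
CPM of the 12 changed members in each library (y axis, from 0, in CPM), Control in grey and iTgMir483 in orange, with the mean and SD of 6 libraries beside the points and iTgMir483 replicate 4 marked with its number. Replicate 4 is the highest of the 12 libraries for 11 of the 12 genes, all but Mx1, and the groups are fully apart for Usp18, Psmb8 and Psmb9.

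Of the 10 genes of the interferon gamma response 1 rose, Gbp7 (10%, near the 8.41% of all genes), none was lower, and the median log2 fold change was 0.38. DESeq2 called 2, limma-voom 1, and 5 had an unadjusted p under 0.05, all higher. The guanylate-binding proteins (Gbp) are large GTPases that coat intracellular pathogens. Gbp7 (chromosome 3, 142530342 to 142550149) ranged from 4.57 to 10.1 CPM in controls (median 5.98) and from 7.64 to 15.6 CPM in iTgMir483 (median 8.96). All iTgMir483 libraries were above the control median, but only 2 were above control replicate 1, the highest control. Its log2 fold change of 0.69 (adjusted p = 0.0339, SE 0.21) did not pass in 7 of the 12 fits that left out 1 library, among them the fit without iTgMir483 replicate 4 (0.55, adjusted p = 0.0715).

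Gbp2 and Gbp3 had log2 fold changes of 0.58 (adjusted p = 0.14, SE 0.26) and 0.40 (adjusted p = 0.273, SE 0.25), and of 0.36 and 0.11 without iTgMir483 replicate 4. Gbp6, the member with the lowest level per length, ranged from 0.173 to 1.94 CPM in controls (median 0.713) and from 0.94 to 1.71 CPM in iTgMir483 (median 1.55). Its log2 fold change was 0.82 (adjusted p = 0.164, SE 0.40), and it passed the test without control replicate 1, the highest of all 12 libraries. The immunity-related GTPases, which act on the vacuoles of pathogens, differed less. Igtp, or Irgm3, and Irgm2 had log2 fold changes of 0.35 (adjusted p = 0.0813, SE 0.13) and 0.36 (adjusted p = 0.141, SE 0.17). The annotated transcripts of these genes overlap on the same strand, so both counts depend on how reads in the overlap were treated. Irgm1 had a log2 fold change of 0.07 (adjusted p = 0.762, SE 0.13) and Iigp1 one of 0.03 (adjusted p = 0.936, SE 0.22). Iigp1 was the most abundant of the 8 GTPases per length, at 25.2 ± 9.55 CPM per kb in controls and 25.7 ± 5.94 in iTgMir483 (SD, n = 6).

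Of the 2 transcription factors of this group, Irf1, a factor that interferon induces early, had a log2 fold change of 0.26 (adjusted p = 0.181, SE 0.13). Irf8, a factor of the myeloid lineage that macrophages and dendritic cells need, ranged from 6.46 to 9.41 CPM in controls (median 7.38) and from 7.64 to 25.3 CPM in iTgMir483 (median 10.7). Replicate 4 stood apart from the other 5 iTgMir483 libraries, of which the highest had 12.5 CPM. The log2 fold change of 0.71 (adjusted p = 0.0594, SE 0.25) did not pass, and was 0.39 (adjusted p = 0.0934) without replicate 4, while Irf8 passed without iTgMir483 replicate 1 or 5 and by DESeq2.

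Antigen processing held 4 changed genes of 10 (40%, where 8.41% of all genes were higher), and none was lower. The median log2 fold change was 0.50, or 0.36 without iTgMir483 replicate 4. Proteasomes cut proteins into peptides, and in immune proteasomes the subunits Psmb8, Psmb9 and Psmb10 take the places of the catalytic subunits Psmb5, Psmb6 and Psmb7. Tap1 and Tap2 form the transporter that carries the peptides into the endoplasmic reticulum, where Tapbp (tapasin) holds it to MHC class I and B2m is the light chain.

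Psmb9 ranged from 5.81 to 10.6 CPM in controls (median 6.75) and from 11.5 to 28.7 CPM in iTgMir483 (median 19.2). The lowest iTgMir483 library was above the highest control, and the log2 fold change was 1.31 (adjusted p = 0.00173, SE 0.22). Psmb8 ranged from 11.9 to 20.6 CPM in controls (median 17.2) and from 21.4 to 53.7 CPM in iTgMir483 (median 26.5), again with no overlap. Its log2 fold change was 0.85 (adjusted p = 0.0146, SE 0.22), and 0.62 (adjusted p = 0.0194) without replicate 4, which stood well above the rest of its group. The third subunit, Psmb10, which lies on chromosome 8 apart from the others, ranged from 9.88 to 22.3 CPM in controls (median 13.1) and from 14.9 to 38.3 CPM in iTgMir483 (median 21.2). It missed the threshold at 0.70 (adjusted p = 0.0508, SE 0.23), and passed in 8 of 19 alternative fits judged by the same threshold, without control replicate 1 among them.

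Tap1 ranged from 15.2 to 21.5 CPM in controls (median 16.7) and from 21.4 to 40.5 CPM in iTgMir483 (median 28.4). Only replicate 5 of the iTgMir483 libraries lay within the control range, and the log2 fold change was 0.73 (adjusted p = 0.00532, SE 0.15). Tap2 ranged from 16.2 to 21.6 CPM in controls (median 18) and from 20.9 to 42.4 CPM in iTgMir483 (median 24.9). Replicate 6 was the only iTgMir483 library within the control range. The log2 fold change of 0.61 (adjusted p = 0.0168, SE 0.16) was close to the fold required, and fell under it, at 0.46 (adjusted p = 0.0236), without replicate 4.

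The 4 genes that rose are neighbours in the H2 complex, in a stretch of 34335 bases of GRCm38 (chr17:34181987-34216321). Psmb9 runs on the minus strand from 34187764 down to 34181987, and Tap1 starts at 34187553 on the plus strand, so their annotated ends overlap head to head by 212 bases. Psmb8 begins 10168 and Tap2 15974 bases after the start of Tap1. No other gene in the stretch had enough counts to be tested; 2 antisense genes of low count, Gm20496 and Gm15821, lie across Psmb8 and Tap2. The RefSeq promoter windows of Tap1 and Psmb9 share 275 bases, and neither window held the ISRE or GAS letters.

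**Figure D3:**
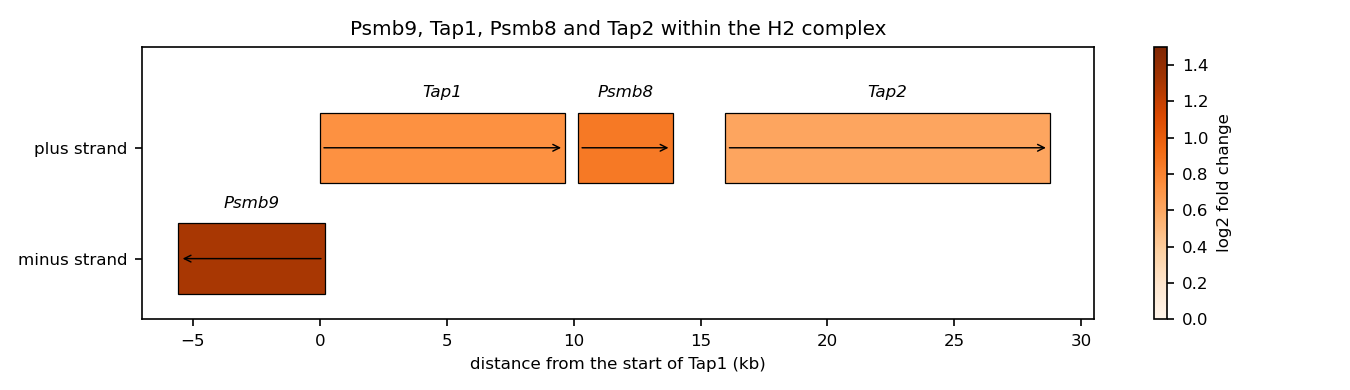
Map of Psmb9, Tap1, Psmb8 and Tap2 by distance from the start of Tap1 (x axis, kb), by strand (arrows give the direction of transcription), with the colour scale giving the log2 fold change. The 4 neighbouring genes were all higher in iTgMir483, from 0.61 for Tap2 to 1.31 for Psmb9.

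The members of the later steps and of class II did not pass the test. B2m, by far the most abundant member per length (1312 ± 127 CPM per kb in controls, SD, n = 6), ranged from 963 to 1229 CPM in controls (median 1184) and from 990 to 1428 CPM in iTgMir483 (median 1255), with a log2 fold change of 0.11 (adjusted p = 0.543, SE 0.12). Tapbp had a log2 fold change of 0.39 (adjusted p = 0.14, SE 0.18), and of 0.21 without iTgMir483 replicate 4. Nlrc5, the transactivator of class I genes, had one of 0.30 (adjusted p = 0.0865, SE 0.12). Ciita, the transactivator of class II, had 0.24 (adjusted p = 0.561, SE 0.27). Cd74, the invariant chain of class II, ranged from 44.5 to 104 CPM in controls (median 70.9) and from 47 to 113 CPM in iTgMir483 (median 64.6), and its log2 fold change of 0.03 (adjusted p = 0.938, SE 0.22) was within the spread between libraries.

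The MHC chains did not pass either. Of 7 tested, 0 changed by edgeR, DESeq2 or limma-voom, and 2 had an unadjusted p under 0.05. The log2 fold changes were 0.22 for H2-K1 and 0.36 for H2-D1, the class I heavy chains, and -0.08 for H2-Aa and 0.03 for H2-Ab1 of class II. Among 18 other genes of peptide supply and loading 3 rose, the lysosomal proteases Ctss (0.67) and Lgmn (0.63) and the class II factor Rfx5 (0.65). The median of the 18 was 0.052 and 7 were below 0, of which Pdia3, a part of the loading complex, passed by adjusted p alone at -0.42 (adjusted p = 0.0499, SE 0.14); 4 were lower at an unadjusted p under 0.05. Psme1 and Psme2, the interferon-inducible cap of the proteasome, had log2 fold changes of 0.09 and 0.19 and did not pass.

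The constitutive core of the proteasome went the other way. All 14 constitutive subunits of the 20S particle had a negative log2 fold change, with a median of -0.35, and 13 passed by adjusted p alone, where 7.33% of all genes did so in that direction. None passed with a fold over 1.5. Psma1, at -0.57, did so by DESeq2, with RLE scaling, with no filter on low counts, and without control replicate 1, control replicate 2, iTgMir483 replicate 1, iTgMir483 replicate 5 or replicate 1 of both groups. The number passing by adjusted p ran from 4 to 14 when 1 library was left out, was 7 without iTgMir483 replicate 4 and 6 with no filter on low counts. Psmb5 ranged from 35 to 49.2 CPM in controls (median 41) and from 29.6 to 32.2 CPM in iTgMir483 (median 30.6), with no overlap and a log2 fold change of -0.42 (adjusted p = 0.00736, SE 0.093); for Psmb6 and Psmb7 it was -0.30 and -0.31.

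Per length, the ratio of Psmb8 to Psmb5 was 0.113 ± 0.034 in controls and 0.264 ± 0.105 in iTgMir483 (SD, n = 6). The ratio of Psmb9 to Psmb6 was 0.0309 ± 0.0086 in controls and 0.0922 ± 0.0275 in iTgMir483. In both pairs the 6 iTgMir483 libraries were above all 6 controls. For Psmb10 to Psmb7 the ratio was 0.215 ± 0.077 in controls and 0.423 ± 0.162 in iTgMir483, with 4 of 6 libraries above the highest control. The differences in mean log2 ratio were 1.22, 1.57 and 0.98, and 1.04, 1.44 and 0.80 without iTgMir483 replicate 4. Every ratio per length was under 1 in every library. Its size depends on the summed exon lengths, such as 3381 bases for Psmb8 and 3660 for Psmb9. The comparison between groups does not depend on those lengths, but which subunit is the more abundant may.

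**Figure D4:**
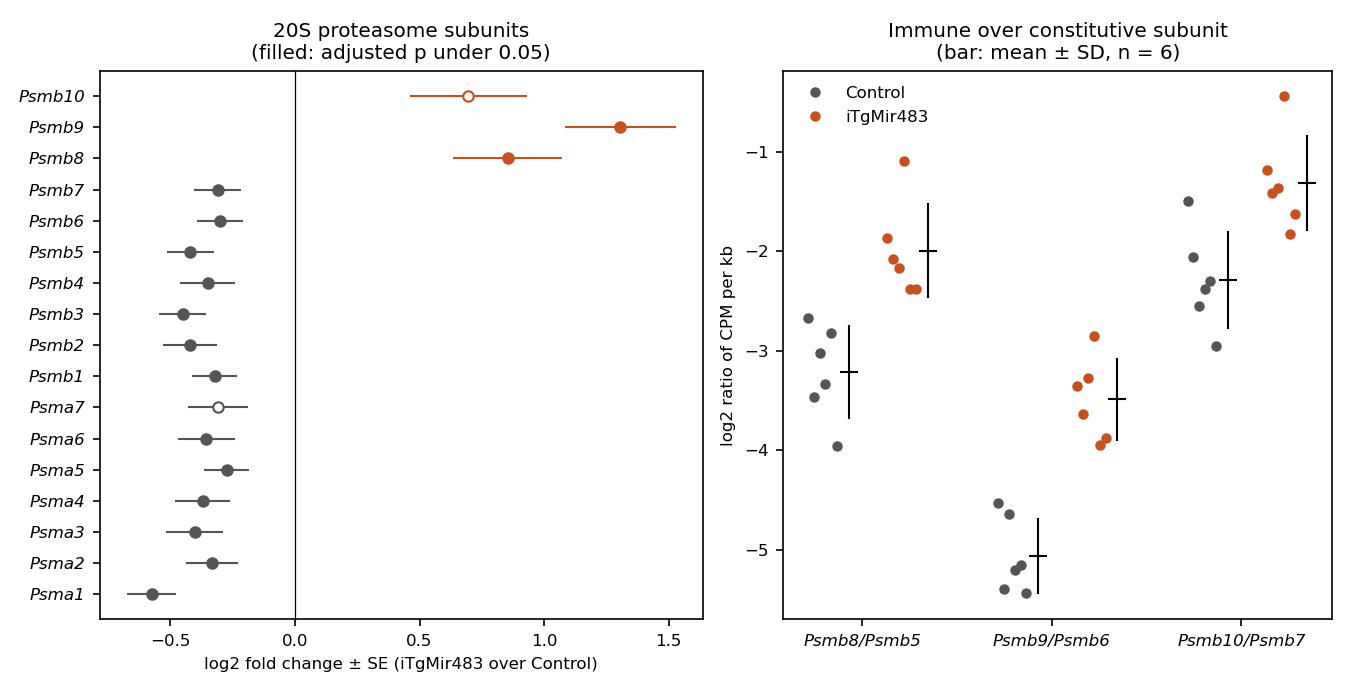
Left, log2 fold change with its standard error (x axis) of the 14 constitutive subunits of the 20S proteasome in grey and the 3 immune subunits in orange, filled where the adjusted p was under 0.05. Right, log2 ratio of CPM per kb (y axis) of each immune subunit to the one it replaces, by library with mean and SD of 6; the iTgMir483 libraries lie above every control for Psmb8 to Psmb5 and Psmb9 to Psmb6.

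The rest of the pathway was read from lists of named genes. Of 21 interferon genes none was tested: 20 had 0 counts in all 12 libraries, Ifnb1 among them, and Ifng had 1 count in 1 control library, so no difference in the ligands was detectable at this depth. Of 13 receptor and signalling genes tested, 2 rose. These were Il10rb (0.62), a chain of the receptors for interferon lambda and interleukin 10, and Socs3 (0.64), a brake on cytokine signalling. Ifngr2 had a log2 fold change of 0.56 (adjusted p = 0.00368, SE 0.11), under the fold required, with all iTgMir483 libraries above all controls. The other receptor chains did not pass, with 0.02 for Ifnar1, 0.25 for Ifnar2 and 0.28 for Ifngr1. Socs1 had too few counts to be tested.

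Of 17 sensors and adaptors of nucleic acid 5 rose, and the median log2 fold change was 0.16. Among them were Tlr9 (1.79), the endosomal receptor for unmethylated DNA, Ikbke (1.37), a kinase that activates Irf3 and Irf7, Irf5 (0.81) and Tmem173 (0.79), which encodes STING. Tlr9 was at a low level, with a mean of 0.273 CPM in controls and 0.989 CPM in iTgMir483. Of 54 further interferon-inducible genes tested, 13 rose and none was lower, with a median of 0.48; DESeq2 and limma-voom also called 0 lower, and none was lower at an unadjusted p under 0.05. The 6 largest among those that rose were Ly6e (1.32), Tgtp1 (1.17), Gbp11 (1.03), Isg20 (0.99), Ifi47 (0.89) and Ifi30 (0.85). Members of the Tgtp and Gbp families are near copies of each other, so their counts depend on how shared reads were assigned.

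Most tested markers of Kupffer cells and macrophages and of monocytes and neutrophils rose in iTgMir483 livers. Few or none of the markers of the other cell classes did. The part of any of these cells in the result was not tested. Of 11 markers of Kupffer cells and macrophages 10 rose, with a median log2 fold change of 1.03, and their summed level ran from 406 to 581 CPM in controls and from 624 to 1718 CPM in iTgMir483. The Kupffer cell genes Clec4f, Cd5l and Timd4 had log2 fold changes of 0.72, 1.03 and 1.10. Of 5 tested markers of monocytes and neutrophils 4 rose (S100a9, S100a8, Csf3r and Lyz2) and the monocyte receptor Ccr2 had a log2 fold change of -0.59 (adjusted p = 0.108, SE 0.24), with a summed level over the 8 listed of 41.6 to 70.0 CPM in controls and 71.0 to 248 CPM in iTgMir483; Ly6g, which marks neutrophils, was at 0 in every control and at most 0.125 CPM in iTgMir483. Markers of T and NK cells, the main sources of interferon gamma, summed to 6.58 to 10.3 CPM in controls and 6.55 to 8.87 in iTgMir483. Of these 3 were tested and 1 rose, Cd4 (0.96), with -0.58 for Trac and 0.26 for Klrk1, while Cd3e, Cd3d and Cd3g were too low to test.

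B and plasma cell markers summed to 10.6 to 20.2 CPM in controls and 11.1 to 22.3 in iTgMir483, with 1 of 5 higher (Ighm). The median log2 fold change of these 5 was -0.10, and Cd79a, a part of the B cell receptor, had -0.81 (adjusted p = 0.0909, SE 0.32). Dendritic cell markers summed to 13.0 to 18.6 and 14.8 to 20.8 CPM, with 1 of 4 higher (Itgax). Siglech, which marks plasmacytoid dendritic cells, was at most 0.823 CPM in any library. Of 6 endothelial markers 0 changed by any of the 3 tools, with 2 at an unadjusted p under 0.05, and of 8 hepatocyte markers Cps1 was lower.

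The mean level of each group of members, as log2(CPM + 0.5) minus the mean of the controls, showed the spread between mice. For the type I group the 6 controls lay between -0.23 and 0.26 and the 6 iTgMir483 libraries between 0.23 and 0.90. For the interferon gamma group the ranges were -0.36 to 0.37 and 0.12 to 0.62, and for antigen processing -0.26 to 0.20 and 0.11 to 0.98. The ranges overlapped in all 3 groups. iTgMir483 replicate 4 was the highest library in each of them, and it was the highest of all 12 libraries for 28 of the 45 members. The same library had the highest mean level of the Kupffer and macrophage markers, at 1.90, with the other 5 from 0.32 to 1.09. Replicate 3, the lowest for those markers, was the second highest in the type I and interferon gamma groups, and replicate 6, the second highest for the markers, was the lowest in antigen processing.

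**Figure D5:**
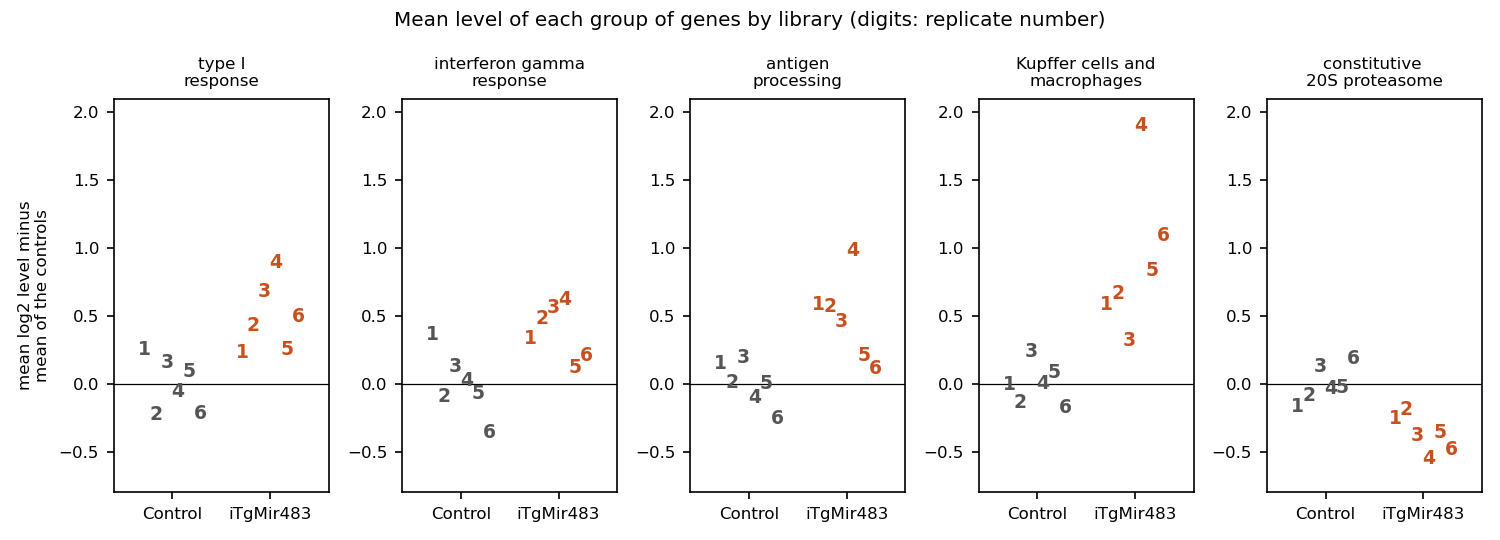
Mean level of the 3 groups of members, of the Kupffer cell and macrophage markers and of the constitutive proteasome in each library (y axis, mean log2(CPM + 0.5) minus the mean of the controls); digits give the replicate number, grey for Control and orange for iTgMir483. iTgMir483 replicate 4 lies highest in the first 4 panels and lowest in the constitutive proteasome.

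Without iTgMir483 replicate 4, 10 of the 45 members were changed, all higher: 7 of the type I group, 0 of the interferon gamma group and 3 of antigen processing, with Gbp7 and Tap2 no longer passing and a median log2 fold change of 0.37. Over all genes 980 of 13347 were higher in that fit. Ifit3, Rsad2 and Ifi44, which had not passed, then had log2 fold changes of 0.37, 0.31 and 0.20. In that fit 8 of the 11 Kupffer and macrophage markers were higher. Without replicate 1 of both groups 19 members were changed, of which 12 were of the type I group, beside 1248 of all 13226 genes higher. Of the 12 members that rose, 9 passed in all 19 alternative fits judged by the same threshold: Isg15, Oas2, Mx1, Usp18, Xaf1, Zbp1, Tap1, Psmb8 and Psmb9. By the stricter glmTreat, which tests against a fold of 1.5 itself, 2 of the 45 passed, Zbp1 and Psmb9, beside 167 of all 13205 genes higher.

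Matches to the transgene's own microRNAs were counted among the members, and the counts are too small to set the members apart from all genes. The 7 letters that pair with the seed of miR-483-3p, AGGAGTG, were in the longest annotated 3′ untranslated region of 4 of 44 members (9.09%), against 12.6% of 12091 tested genes. They were Ifit3, Oas1a, Stat2 and Irf8, and Irf8 held 2. For miR-483-5p the letters CCCGTCT were in 3 of 44 (6.82%), against 3.26%, namely Ddx58, Igtp and Cd74. None of the 7 passed the test in either direction. None of the 12 members that rose held either match, a number too small to weigh against those shares. The sites of Irf8 (plus strand, the match at chr8:120756531-120756537 and chr8:120756605-120756611) and Stat2 (plus strand, chr10:128292281-128292287) are shown with 8 bases on each side and the match in capitals, as examples in factors that direct the response.
Irf8, upstream site: gtcaaagcAGGAGTGtcccttcc
Irf8, downstream site: ctgcctcaAGGAGTGctagtgtc
Stat2: tgttccttAGGAGTGacctaggc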

How the data were processed

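Poly(A) RNA from 12 livers was sequenced as multiplexed, stranded paired-end libraries. The study's methods do not say how the libraries were divided over pools or runs. The authors deposited raw counts of reads for each gene, made by aligning to GRCm38 with STAR (version not given in the labels) and counting over Ensembl genes. The strand column used is not stated, and 25 of the 45 members overlap another annotated gene, so their counts may include reads of that neighbour. Symbols and positions came from GENCODE M21 (GRCm38) for 55141 of 55401 genes. Groups came from the sample titles. The labels do not say in so many words that each library is a separate mouse, and p-values measure the spread between libraries.

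Genes were kept with filterByExpr (13205), scaled by TMM and tested without covariates in edgeR 4.0.16 (R 4.3.3) by the quasi-likelihood F-test, the one of these steps that the study's methods name, with Benjamini-Hochberg adjustment over all genes. The script was tested on simulated data. CPM scale counts to 1 shared library total after TMM, and CPM per kb divides by summed exon length. A standard error is the log2 fold change over the root of its F. Reads carry no molecular identifiers, so the counting error cannot be read from the depth alone. RLE scaling, other count filters, DESeq2 1.42.0, limma-voom 3.58.1, a replicate block, other thresholds and leaving out libraries were tried as alternatives. Same-numbered libraries correlated in their deviations by 0.44, 0.0419, 0.0376, 0.0339, 0.167 and 0.0527. With 4 of these under 0.1 the numbers were not taken as pairs, although the replicate 1 libraries, at 0.44, did share deviations. Litter was not in the model. No library was a copy of another (smallest chi-square per degree of freedom 15.7).

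The members and lists were chosen with earlier results of these data known. All members are named; values by library, as lowest, median and highest of 6, are given for changed members, for those whose call turned on 1 library, and for Isg15, Stat2, Irf9, Psmb8, B2m and Cd74. Of other lists, the genes named are up to 6 changed genes by size and receptors, proteasome subunits, MHC chains and markers set out by name. Lists cover interferon genes, receptors and JAK-STAT, nucleic acid sensing, other interferon-inducible genes, peptide supply, constitutive proteasome, MHC chains and markers of 7 cell classes. One listed gene, Mnda, had no row. Promoters and microRNAs came from RefSeq (GRCm38.p6) and 3′ untranslated regions from GENCODE M21. Results for some listed genes are not reported here.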

Additional observations from a re-analysis of the deposited data

Results flagged for a closer look

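Of 102 groups of 6 libraries compared by Dixon's criterion, 11 held a library far from its fellows. For independent, normally spread values chance flags about 1 in 20 groups, or 5.1 here. These groups share libraries and genes, so 5.1 is a rough guide and no excess is read from it. The numbers are the gap to the nearest library as a share of the range of the group. In controls, replicate 1 was highest for Mx1 (0.664, at 2.13 CPM), Parp14 (0.651), Gbp6 (0.6254) and Tapbp (0.655). Control replicate 5 was lowest for Stat2 (0.732, at 47.5 CPM with the others from 65.9 to 72.6), and control replicate 6 for Gbp2 (0.867, at 1.83 CPM with the others from 4.95 to 5.42). In iTgMir483, replicate 4 was highest for Irf7 (0.804, at 76.5 CPM with the others from 29.2 to 38.5), Irf8 (0.725), Gbp3 (0.795) and Psmb8 (0.637), and replicate 1 was lowest for Oasl1 (0.628). Only Mx1 and Psmb8 of these were changed, and both passed without the library named.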

How the results depend on the processing

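With glmTreat against a fold of 1.5, 226 of all genes were changed (167 higher, 59 lower) and 2 members, of which 1 was of the type I group, 0 of the interferon gamma group and 1 of antigen processing. By adjusted p alone 2457 of all genes passed, 968 of them lower. DESeq2 called 2 interferon gamma members. Leaving out 1 library gave 6 to 11 changed type I members, 0 to 2 of interferon gamma and 3 to 5 of antigen processing; the 11 came without iTgMir483 replicate 1. With both replicate 1 libraries left out, chosen after seeing the data, 19 members were changed, 12 of type I and 2 of interferon gamma, beside 1248 of 13226 genes higher. The replicate block gave 12 changed members, 11 of them the same genes, with Tap2 lost and Psmb10 gained. Small changes turned negative when 1 library was left out, none of them called. Stat2 ran from -0.022 to 0.12, Irgm1 from -0.033 to 0.13, Iigp1 from -0.086 to 0.24 and Cd74 from -0.15 to 0.18 over these fits. No member was called lower under any alternative. The causes were not tested. Members near or under 1 CPM, such as Gbp6, are limited by depth: its lowest library held 3 counts.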
